A study of Danio rerio with 12 samples.

Results

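The genes that make, transport, sense and clear the inhibitory transmitters GABA and glycine were described in RNA sequencing data from whole zebrafish larvae without functional Elmo3. The genes were chosen by symbol, with no measured value involved: all subunits of the GABA-A, GABA-B and glycine receptors whose symbols begin with gabra, gabrb, gabrd, gabrg, gabrp, gabrr, gabrz, gabbr, glra or glrb, and a short list of enzymes, transporters and gephyrin. There were 47 such genes among 32520 gene identifiers, and all 47 passed the filter on low counts. For 40 genes the symbol matched in full. The symbol table leaves out the paralog letter of some genes, such as gad1, gphn and slc6a11, so that 7 further identifiers were taken by the base symbol. Of the 47 genes, 42 are named, and counts and medians cover all 47. Where named identifiers share a symbol, they are given with their Ensembl identifier, and which of the paralogs each one is was not decided.

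Elmo3 is an adaptor of the engulfment and cell motility family, which works with DOCK proteins to activate the small GTPase Rac1. The elmo3-/- larvae were homozygous for a CRISPR/Cas9 frameshift deletion in exon 2 of elmo3, made in 1 mutant line, and were compared with elmo3+/+ larvae. Both genotypes carried the Tg(fli1:EGFP) reporter, in which endothelial cells express EGFP. There were 6 samples per genotype, each a pool of 30 whole larvae collected at 120 hours post fertilization (hpf), and no source says whether the pools came from separate clutches, so p-values measure the spread between pools.

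GABA is made from glutamate by the glutamate decarboxylases, glycine comes from general amino acid metabolism, and one vesicular carrier loads both into synaptic vesicles. Both transmitters open pentameric chloride channels on the receiving neuron, the GABA-A receptors and the glycine receptors, which the scaffold protein gephyrin holds at the synapse. GABA-B receptors are G protein coupled instead, and sodium-driven carriers of the Slc6 family take the transmitters up again into neurons and glia. In fish larvae, glycine serves the left-right alternation of swimming and the escape response, and zebrafish with mutations in slc6a9 or in a glrb gene move abnormally.

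The total estimated count per sample lay between 16851426 and 17577126. The 13 mitochondrial transcripts took 7.28% to 10.3% of the counts in elmo3-/- samples (median 8.37%) and 6.59% to 8.99% in elmo3+/+ samples (median 6.89%). These ranges overlapped through elmo3+/+ replicate 1 (8.99%), and the other 5 elmo3+/+ samples lay below the lowest elmo3-/- sample. Whether this share bears on the values of other genes was not tested. The elmo3 transcript itself had counts of 45 to 91 in elmo3-/- samples and of 44 to 99 in elmo3+/+ samples, a log2 fold change of 0.03 (edgeR, Benjamini-Hochberg adjusted p = 0.967). Counts of a gene with a small deletion do not check the genotype labels. Over all genes, 21 of 21127 genes tested passed an adjusted p of 0.05 in edgeR's quasi-likelihood test (0.0994%), and 2012 had an unadjusted p under 0.05 (9.52%).

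No gene of the 47 passed the test between elmo3-/- and elmo3+/+ larvae. The number past the adjusted threshold of 0.05 was 0 in edgeR, in DESeq2 and in limma, against 0.0994% of all genes in edgeR, and the adjusted p-values of the 47 genes ran from 0.489 to 0.993. At an unadjusted p under 0.05 there were 4 genes (8.51%), close to the 9.52% of all genes tested. Of these, the glycine transporter gene slc6a9, gabrr2 (ENSDARG00000014057) and gabra6 (ENSDARG00000058736) had higher values in elmo3-/-, as had 4.58% of all genes at this threshold, and the GABA transporter gene slc6a11 had lower values, as had 4.95%. No gene of the 47 had CPM (counts scaled to the library size by the TMM method) that did not overlap between the genotypes, which 0.431% of all genes had. The precision was enough to bound most of these differences: the median standard error was 0.11 on the log2 scale, and for 41 of the 47 genes the 95% interval of the fold change lay within 1.5-fold in either direction.

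**Figure D1:**
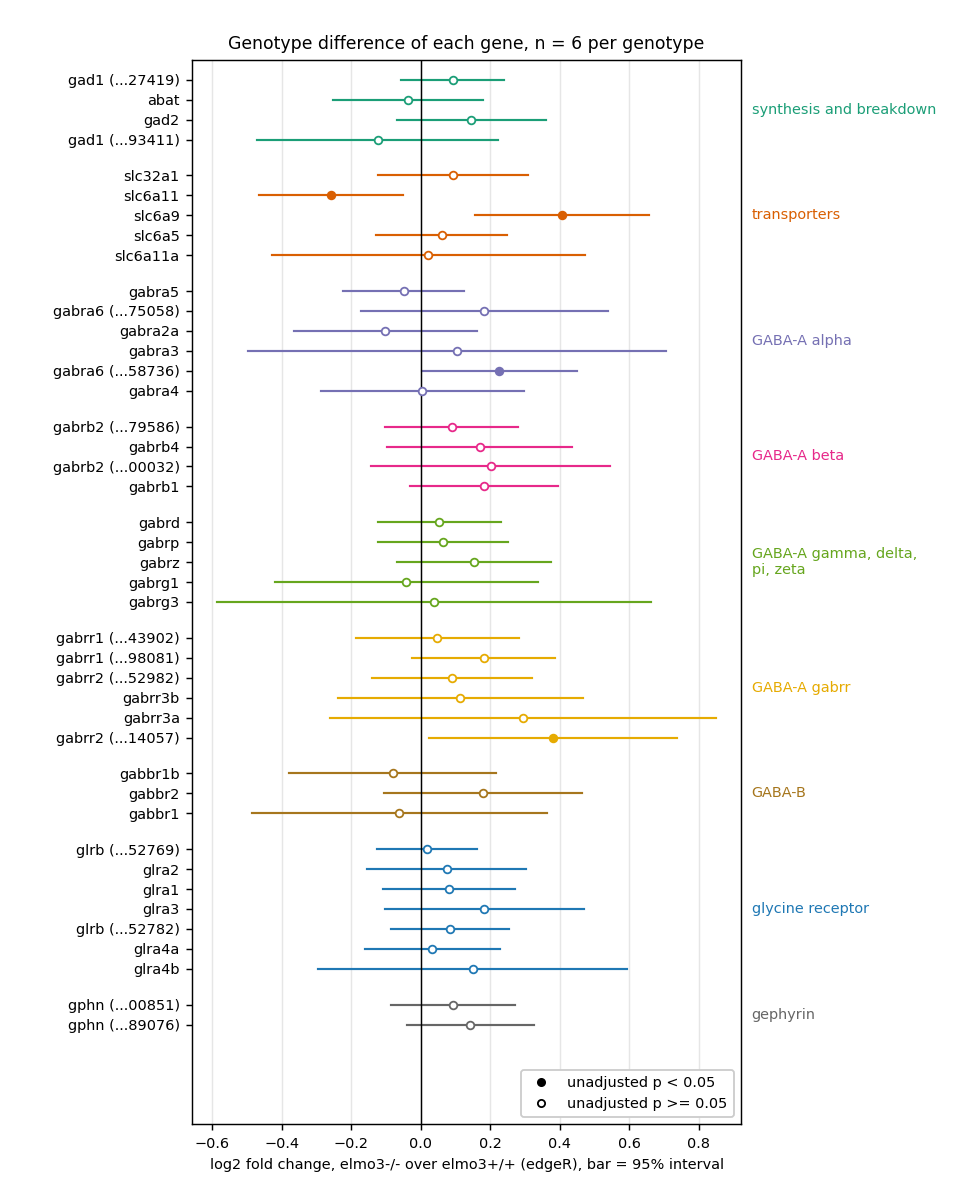
Log2 fold change of 42 of the genes, elmo3-/- over elmo3+/+, from edgeR (x axis) by gene and role (y axis). Points are estimates, bars are 95% intervals from 6 samples per genotype, and filled points mark an unadjusted p under 0.05. The intervals of slc6a9 (0.16 to 0.66) and slc6a11 (-0.47 to -0.05) lie on opposite sides of 0, and most others span 0.

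Levels between genes were compared in TPM, a unit in which each count is divided by a transcript length and the samples are scaled to the same total. Ordered by mean TPM over all 12 samples, gad1 (ENSDARG00000027419) was the highest of the 42 named genes, with 91.2 TPM, and gabbr1, a GABA-B receptor subunit gene, the lowest with 0.887 TPM. Next to the highest came the vesicular carrier gene slc32a1 with 58.6 TPM and glrb (ENSDARG00000052769) with 52.9 TPM. The GABA-A subunit gene gabrd stood below these with 28.9 TPM. The summed TPM of all 47 genes was lowest at 824, with a median of 884 and a highest value of 1150, in elmo3-/- samples, against 860, 947 and 985 in elmo3+/+ samples. The elmo3-/- samples covered the wider range, and it held the whole range of the elmo3+/+ samples. In bulk samples such as these, fewer cells of a type and less RNA per cell cannot be told apart.

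**Figure D2:**
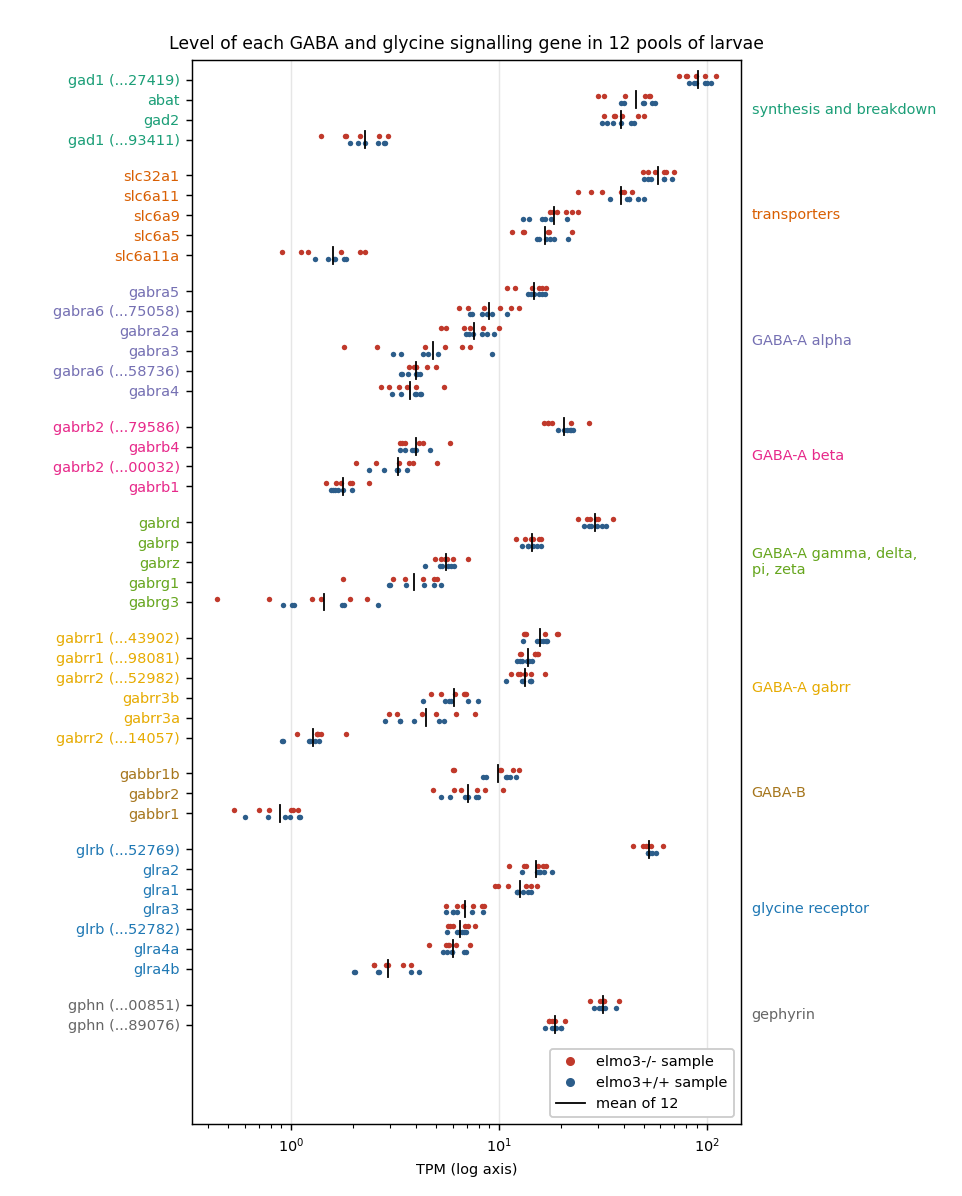
TPM of 42 of the genes (x axis, log scale) by gene and role (y axis). Each point is 1 pool of 30 larvae, red for elmo3-/- and blue for elmo3+/+, and the black bar is the mean of 12 samples, which runs between 0.887 TPM for gabbr1 and 91.2 TPM for gad1 (ENSDARG00000027419).

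Within each role the order of levels was tested between neighbours with a two-sided exact sign-flip permutation test of the log2 TPM ratio over 12 samples, whose smallest p-value is 0.000488. Of 38 neighbouring pairs, 29 were told apart after Benjamini-Hochberg adjustment over the 38 pairs. The pairs and their order came from the mean TPM of these same 12 samples, so the p-values do not test an order set beforehand. The other 9 pairs did not differ beyond their spread, and 7 of them are named with their roles below. The order depends on the transcript lengths behind TPM: in CPM, which is not divided by length, 9 of the 38 pairs stood in the other order.

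The enzymes of GABA synthesis were among the more abundant transcripts, and their ranges overlapped between the genotypes. Of the glutamate decarboxylase genes, gad1 (ENSDARG00000027419) had a lowest, median and highest TPM of 73.7, 84.5 and 111 in elmo3-/- samples, and of 82.5, 93.9 and 105 in elmo3+/+ samples. In CPM these values were 171, 194 and 215 in elmo3-/- samples, and 163, 181 and 196 in elmo3+/+ samples, a log2 fold change of 0.09 ± 0.07 (SE, edgeR, adjusted p = 0.675). The genotype medians of this gene therefore stood in opposite orders on the 2 scales, and the ranges overlapped on both. The second identifier of the same symbol, gad1 (ENSDARG00000093411), averaged 2.28 TPM, so that nearly all gad1 transcripts came from the first. For gad2, which encodes the other decarboxylase, CPM was 182, 210 and 252 in elmo3-/- samples, against 159, 188 and 226 in elmo3+/+ samples, with a log2 fold change of 0.15 (95% interval -0.07 to 0.36, adjusted p = 0.641). The TPM ratio of gad1 (ENSDARG00000027419) to gad2 had a median of 2.21 (range 2.04 to 2.51) in elmo3-/- samples and of 2.68 (1.83 to 2.98) in elmo3+/+ samples. The elmo3-/- ratios lay inside the range of the elmo3+/+ ratios.

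GABA is broken down by GABA transaminase, the product of abat. Its CPM was 152, 189 and 227 in elmo3-/- samples, against 167, 197 and 209 in elmo3+/+ samples (log2 fold change -0.04, adjusted p = 0.924). In TPM, abat (45.8 on average) was not told apart from gad2 (38.9) over the 12 samples (adjusted exact p = 0.0658), while it stood below gad1 (ENSDARG00000027419) in 12 of 12 samples.

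The highest and the lowest log2 fold change of the 47 genes both lay among the transporters, in a carrier of glycine and a carrier of GABA. The gene slc6a9 encodes glycine transporter 1, which in mammals sits mainly on glia and clears glycine from around the synapse. Its CPM was 153, 164 and 198 (lowest, median, highest) in elmo3-/- samples, against 97.0, 123 and 165 in elmo3+/+ samples, so that all 6 elmo3-/- samples lay above the elmo3+/+ median while the ranges overlapped. The log2 fold change was 0.41 ± 0.12 (SE, 95% interval 0.16 to 0.66), a fold of 1.33, with an unadjusted p of 0.0035 that did not pass over all genes (edgeR adjusted p = 0.489). Over 20 other settings it stayed positive, between 0.23 and 0.49, and its adjusted p ran between 0.160 and 0.852. The 0.160 came without elmo3+/+ replicate 1 (log2 fold change 0.45) and the 0.852 without elmo3+/+ replicate 2 (0.34). CPM of slc6a9 was highest in elmo3-/- replicate 2 and lowest in elmo3+/+ replicate 2. The lowest fold change came with 1 surrogate variable in the fit. That variable was not independent of genotype, with a mean of 0.14 in elmo3-/- samples and of -0.14 in elmo3+/+ samples. Fitting it can take up part of a genotype difference or of another difference between samples, and which of these it took up was not tested. No other setting brought slc6a9 past the threshold, and DESeq2 gave an adjusted p of 0.191.

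The slc6a9 level was also set against neuronal RNA. As a percentage of the summed TPM of 17 pan-neuronal marker genes, its level was 0.563 to 0.698 in elmo3-/- samples and 0.432 to 0.551 in elmo3+/+ samples, without overlap. Of all genes tested, 0.189% were higher in elmo3-/- without overlap on this scale, and 0.128% were lower. No other gene of the 47 was free of overlap in this measure. The ranges of the 17 markers themselves overlapped between the genotypes, with a summed level of 2962 to 4012 TPM in elmo3-/- samples and of 2977 to 3880 TPM in elmo3+/+ samples. Against the summed TPM of 8 astroglia markers, slc6a9 was at 1.25% to 1.59% in elmo3-/- samples and at 0.769% to 1.15% in elmo3+/+ samples, again without overlap. On that scale 3 of the 47 genes, and 2.38% of all genes tested, were higher in elmo3-/- without overlap, and 0 of the 47 and 0.0426% of all were lower. The median of the astroglia sum was itself lower in elmo3-/- samples, with 1455 TPM against 1801 TPM in elmo3+/+ samples. The 8 markers taken singly had a median log2 fold change of 0.05 in edgeR, on counts, and of -0.07 in limma on log2(TPM + 1). Both denominators were applied to single genes after the values of slc6a9 were known.

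The other glycine carrier, slc6a5, encodes glycine transporter 2, which loads the terminals of glycine neurons and serves as their marker in zebrafish. Its CPM was 71.3, 85.2 and 102 in elmo3-/- samples, against 73.2, 79.4 and 92.0 in elmo3+/+ samples (log2 fold change 0.06, 95% interval -0.13 to 0.25, adjusted p = 0.846). The ratio of slc6a9 to slc6a5 in TPM was 1.01, 1.39 and 1.59 in elmo3-/- samples and 0.707, 0.926 and 1.37 in elmo3+/+ samples. In TPM slc6a9 was higher than slc6a5 in 6 of 6 elmo3-/- samples and in 3 of 6 elmo3+/+ samples. Over all 12 samples both genes were not told apart in TPM (18.5 and 16.7 TPM, adjusted exact p = 0.257). This split depended on the scale: in CPM slc6a9 was higher in 12 of 12 samples, by a ratio of 1.78. For slc6a5, 1 TPM stood for a mean of 90.7 counts in elmo3-/- samples and 81.6 counts in elmo3+/+ samples.

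slc6a11 encodes a GABA carrier that in mammals is the main one of astrocytes. Its CPM was 42.3, 54.6 and 63.7 in elmo3-/- samples, against 53.9, 64.4 and 70.8 in elmo3+/+ samples. All 6 elmo3-/- samples lay below the elmo3+/+ median, and the ranges overlapped. The log2 fold change was -0.26 ± 0.10 (95% interval -0.47 to -0.05), with an unadjusted p of 0.0173 and an adjusted p of 0.499 in edgeR. It stayed negative in all 20 other settings, between -0.34 and -0.14, with adjusted p-values from 0.207 to 0.861. The related slc6a11a, which was rare at 1.59 TPM, had a log2 fold change of 0.02 with a wide interval of -0.43 to 0.47.

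Markers of astroglia were examined beside slc6a11. The summed level of 8 astroglia markers was 1328, 1455 and 1794 TPM in elmo3-/- samples, against 1630, 1801 and 1862 TPM in elmo3+/+ samples. In edgeR 4 markers had a positive and 4 a negative log2 fold change. In limma on log2(TPM + 1) 3 were positive and 5 negative, with a median of -0.07 beside -0.06 over all genes. The glutamate carrier gene slc1a3 was the marker with an unadjusted p under 0.05 (log2 fold change -0.26, adjusted p = 0.511). Relative to this sum, slc6a11 was at 1.81%, 2.25% and 2.60% in elmo3-/- samples and at 2.10%, 2.35% and 2.73% in elmo3+/+ samples, which overlap widely. The part of astroglia in the slc6a11 difference was not tested.

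The vesicular carrier gene slc32a1, which marks neurons that release GABA or glycine, had 148 to 194 CPM in elmo3-/- samples and 135 to 190 CPM in elmo3+/+ samples. Its log2 fold change of 0.09 (95% interval -0.12 to 0.31, edgeR) had an adjusted p of 0.778.

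**Figure D3:**
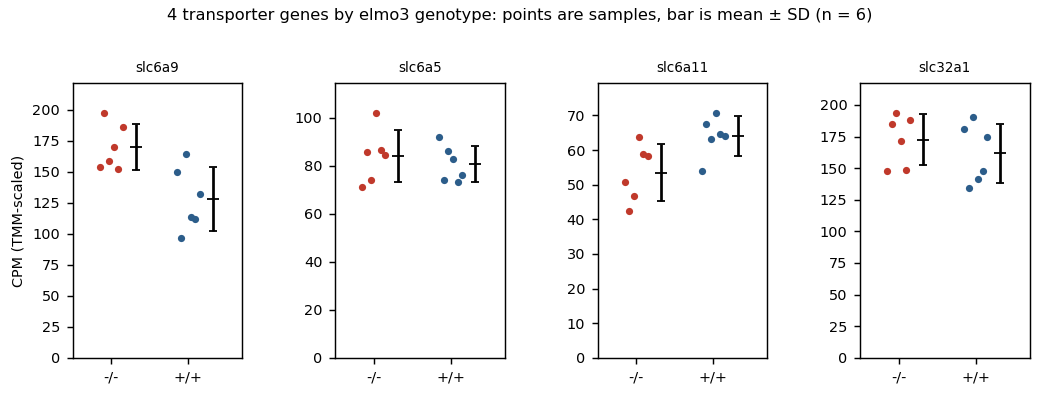
CPM (y axis, TMM-scaled, starting at 0) of 4 transporter genes in elmo3-/- samples (red, left) and elmo3+/+ samples (blue, right). Points are samples and bars are mean ± SD (n = 6). For slc6a9 all 6 elmo3-/- samples lie above the elmo3+/+ median of 123 CPM, for slc6a11 all 6 lie below the elmo3+/+ median of 64.4 CPM, and the ranges of all 4 genes overlap.

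GABA-A receptors are assembled from alpha and beta subunits, which form the GABA site between them, with a gamma or delta subunit that sets location and drug response. The 7 alpha genes had log2 fold changes between -0.10 and 0.23, and gabra5 had 14.8 TPM. CPM of gabra5, the alpha gene found mostly at extrasynaptic sites in mammals, was 14.98, 18.1 and 20.5 in elmo3-/- samples, against 17.4, 18.4 and 21.1 in elmo3+/+ samples (log2 fold change -0.05, adjusted p = 0.862).

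The symbol gabra6, a subunit of cerebellar granule cells in mammals, had 2 identifiers. gabra6 (ENSDARG00000058736) was at 9.50, 11.6 and 13.98 CPM in elmo3-/- samples, against 8.61, 9.89 and 11.5 CPM in elmo3+/+ samples, and 5 of 6 elmo3-/- samples lay above the elmo3+/+ median. Its log2 fold change of 0.23 (95% interval 0.0028 to 0.45) had an unadjusted p of 0.0475 and an adjusted p of 0.520. gabra6 (ENSDARG00000075058), at 9.01 TPM the higher of the pair, had a log2 fold change of 0.18 with an interval of -0.17 to 0.54. The remaining alpha genes, gabra2a, gabra3 and gabra4, had log2 fold changes between -0.10 and 0.10. The levels of gabra3, gabra6 (ENSDARG00000058736) and gabra4, between 3.74 and 4.84 TPM, were not told apart as neighbours (adjusted exact p of 0.473 and 0.248).

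Among 5 beta genes, gabrb2 (ENSDARG00000079586) had a level of 20.6 TPM. All 5 beta genes had a positive log2 fold change in edgeR, between 0.09 and 0.20, and 4 of 5 in limma on log2(TPM + 1) and with 1 surrogate variable, and none had an unadjusted p under 0.05 in edgeR. In that limma fit the median over all genes was itself -0.06, so that fewer positive values there need not mean a reversal. gabrb1 was at 9.30, 10.4 and 12.4 CPM in elmo3-/- samples, against 8.12, 9.05 and 11.1 CPM in elmo3+/+ samples. All 6 elmo3-/- samples lay above the elmo3+/+ median, with a log2 fold change of 0.18 (adjusted p = 0.573). The direction of gabrb2 (ENSDARG00000079586) depended on the scale. Its log2 fold change was 0.09 in edgeR, with 33.6, 37.2 and 45.1 CPM in elmo3-/- samples and 29.9, 36.2 and 39.4 CPM in elmo3+/+ samples. In TPM it was at 16.6, 17.7 and 27.1 in elmo3-/- samples, against 19.3, 21.7 and 22.7 in elmo3+/+ samples, and limma on log2(TPM + 1) gave -0.13. The rarer gabrb2 (ENSDARG00000100032), with 3.27 TPM, had a log2 fold change of 0.20 (95% interval -0.14 to 0.55, adjusted p = 0.691). gabrb4, with 3.99 TPM, had one of 0.17 (95% interval -0.10 to 0.43, adjusted p = 0.663).

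The gamma, delta, pi and zeta genes are further GABA-A subunits that join them. gabrd, whose delta subunit serves tonic inhibition outside the synapse, was the highest with 28.9 TPM. It was at 26.3, 27.5 and 31.98 CPM in elmo3-/- samples, against 22.7, 27.0 and 30.9 CPM in elmo3+/+ samples (log2 fold change 0.05, adjusted p = 0.852). gabrz was at 10.4, 11.6 and 13.4 CPM in elmo3-/- samples, against 8.28, 10.7 and 12.5 CPM in elmo3+/+ samples (log2 fold change 0.15, adjusted p = 0.636). gabrp, gabrg1 and gabrg3 had log2 fold changes between -0.04 and 0.06, with levels of 14.4, 3.90 and 1.44 TPM. gabrg3 was among the least precise, with 0.368 to 1.27 CPM in elmo3-/- samples, 0.569 to 1.44 CPM in elmo3+/+ samples and an interval of -0.59 to 0.66.

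The subunits of the gabrr genes form GABA receptors of their own, known above all from the bipolar cells of the retina. All 6 gabrr genes had a positive log2 fold change in edgeR, with a median of 0.15, while 51.1% of all genes were positive, but 5 were positive in limma on log2(TPM + 1) and 2 with 1 surrogate variable (median -0.08). The highest of them, gabrr1 (ENSDARG00000043902), was at 15.5, 17.8 and 22.2 CPM in elmo3-/- samples and at 13.7, 18.9 and 19.5 CPM in elmo3+/+ samples (log2 fold change 0.05, adjusted p = 0.911). gabrr1 (ENSDARG00000098081) was at 13.9, 17.6 and 20.2 CPM in elmo3-/- samples, against 13.8, 15.2 and 16.2 CPM in elmo3+/+ samples (log2 fold change 0.18, adjusted p = 0.566). The largest fold with an unadjusted p under 0.05 in this group was that of the rarest gene, gabrr2 (ENSDARG00000014057) with 1.27 TPM. It was at 1.596, 1.82 and 2.36 CPM in elmo3-/- samples, against 1.09, 1.57 and 1.69 CPM in elmo3+/+ samples, a log2 fold change of 0.38 (95% interval 0.02 to 0.74, unadjusted p = 0.0379, adjusted p = 0.506). gabrr3a was the most variable, at 3.00 to 8.65 CPM in elmo3-/- samples and 2.94 to 6.13 CPM in elmo3+/+ samples, with a log2 fold change of 0.29 and an interval of -0.26 to 0.85. gabrr1 (ENSDARG00000098081) and gabrr2 (ENSDARG00000052982), at 13.8 and 13.4 TPM, were not told apart in level (adjusted exact p = 0.327).

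The gabrr genes were examined beside retinal markers. All 6 gabrr genes had their lowest CPM in elmo3+/+ replicate 2, and 3 of them had their highest in elmo3-/- replicate 2. The low values of elmo3+/+ replicate 2 were not particular to these genes, since 21 of the 47 genes had their lowest value there and the median deviation of 17 pan-neuronal markers was -0.27. In the same samples the median deviation of 11 retinal bipolar markers from their means was -0.28 in elmo3+/+ replicate 2, the lowest of all samples, and 0.45 in elmo3-/- replicate 2, the highest. All 11 bipolar markers had a positive log2 fold change in edgeR (median 0.19, with 0 at an unadjusted p under 0.05) and 8 of them in limma on log2(TPM + 1). Of 13 photoreceptor markers 10 were positive in edgeR (median 0.10) and 6 in limma (median -0.01, beside -0.06 over all genes). With 1 surrogate variable 7 bipolar markers (median 0.02) and 2 photoreceptor markers (median -0.12) were positive. The summed bipolar level was 116, 132 and 156 TPM in elmo3-/- samples, against 112, 126 and 152 TPM in elmo3+/+ samples, and the summed photoreceptor level was 8744 to 14828 TPM in elmo3-/- samples, against 9861 to 13607 TPM in elmo3+/+ samples. No marker of either list was at 0 in all samples, and the part of the retina in the gabrr values was not tested.

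GABA-B receptors are pairs of a GABABR1 protein, which binds GABA, and a GABABR2 protein, which couples to the G protein. gabbr1b, the higher of both genes for the binding partner with 9.95 TPM, was at 19.3, 30.7 and 34.9 CPM in elmo3-/- samples, against 24.7, 31.8 and 33.0 CPM in elmo3+/+ samples (log2 fold change -0.08, adjusted p = 0.870). gabbr2 was at 12.4, 16.1 and 22.5 CPM in elmo3-/- samples, against 12.14, 15.1 and 17.7 CPM in elmo3+/+ samples (log2 fold change 0.18, adjusted p = 0.670). In TPM gabbr1b exceeded gabbr2 in 11 of 12 samples, by a mean ratio of 1.39. gabbr1, at 0.887 TPM, had a log2 fold change of -0.06 with an interval of -0.49 to 0.36.

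Glycine receptors are built from alpha subunits, which bind glycine, and a beta subunit, which ties them to gephyrin. All 7 genes had a positive log2 fold change in edgeR, between 0.02 and 0.18, with 0 at an unadjusted p under 0.05 and adjusted p-values from 0.660 to 0.948. In limma on log2(TPM + 1) 3 of the 7 were positive, with glrb (ENSDARG00000052769) and glra2 at -0.05 and -0.11, and with 1 surrogate variable 2 were positive. The limma median of the 7 genes was -0.05, beside -0.06 over all genes. glrb (ENSDARG00000052769) held 51.4% of the summed level of the glycine receptor genes. It had 78.9, 94.0 and 104 CPM in elmo3-/- samples, against 85.6, 93.3 and 96.7 CPM in elmo3+/+ samples, and its log2 fold change of 0.02 (95% interval -0.13 to 0.16, adjusted p = 0.948) was among the tightest bounds. glra2, an alpha subunit of immature neurons in mammals, was at 5.89, 7.58 and 8.31 CPM in elmo3-/- samples, against 6.26, 6.74 and 7.98 CPM in elmo3+/+ samples (log2 fold change 0.07, adjusted p = 0.844).

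The balance of these subunits overlapped between the genotypes. The summed TPM of the 2 glrb genes over that of the 5 glra genes had a median of 1.39 (range 1.23 to 1.52) in elmo3-/- samples and of 1.32 (1.26 to 1.61) in elmo3+/+ samples. The summed GABA-A subunits exceeded the summed glycine receptor subunits by a median of 2.45 (2.28 to 2.61) in elmo3-/- samples and of 2.36 (2.23 to 2.47) in elmo3+/+ samples. Of the neighbours in level, glra3, glrb (ENSDARG00000052782) and glra4a, with 6.89 TPM in the highest of them, were not told apart (adjusted exact p of 0.275 and 0.0658). glra4a had a log2 fold change of 0.03 (adjusted p = 0.924), and glra4b, the rarest of the glycine receptor genes with 2.95 TPM, had one of 0.15 (95% interval -0.29 to 0.59, adjusted p = 0.837). The order of glra2 and glra1 rests on the lengths: glra2 exceeded glra1 by a ratio of 1.19 in TPM, in 11 of 12 samples, and was at 0.1003 of glra1 in CPM, because 1 TPM stood for 8.13 counts of glra2 and 97.5 counts of glra1. By the same arithmetic slc6a11 exceeded slc6a9 in TPM by 2.07 and was at 0.399 of it in CPM.

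Gephyrin, the scaffold under both receptor families, was encoded by 2 gphn identifiers with 31.9 and 18.6 TPM. gphn (ENSDARG00000100851) was at 57.6, 66.2 and 71.5 CPM in elmo3-/- samples, against 53.0, 61.1 and 72.6 CPM in elmo3+/+ samples (log2 fold change 0.09, adjusted p = 0.728). gphn (ENSDARG00000089076) was at 49.6, 56.4 and 62.1 CPM in elmo3-/- samples, against 42.2, 52.1 and 57.2 CPM in elmo3+/+ samples (log2 fold change 0.14, adjusted p = 0.602). The ratio of the first to the second varied little, with a mean of 1.71 and the same order in 12 of 12 samples.

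Several receptor genes lie side by side in the RefSeq annotation of the assembly GRCz12tu, with genes of different subunits in one cluster as in mammals. With no other protein-coding gene between them, gabra2a, gabrg1 and gabrb1 follow each other, at 7.64, 3.90 and 1.78 TPM. In a second cluster gabrg3 and gabra5 follow each other, at 1.44 and 14.8 TPM. A further pair is gabrb4 with gabra3, at 3.99 and 4.84 TPM. None of the 46 genes that could be placed lay on the chromosome of elmo3, and gabrr3b could not be placed.

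As a group the 47 genes leaned towards higher values in elmo3-/- in CPM, and in TPM relative to all genes but not relative to 0. In edgeR 38 of them (80.9%) had a positive log2 fold change and 9 a negative one, where 51.1% of all genes were positive. Their median was 0.09, beside 0.0045 over all genes. In limma on log2(TPM + 1), 23 of the 47 were positive, with a median of -0.0036 beside -0.06 over all genes, and 32 of the 47 lay above that median of all genes. With 1 surrogate variable in the edgeR fit 23 were positive as well, with a median of -0.0047 beside 0.0065 over all genes, and 22 lay above the median of all genes. That variable differed in mean between the genotypes (0.14 and -0.14) and also varied within them. It ran from -0.11 to 0.43 in elmo3-/- samples and from -0.45 to 0.27 in elmo3+/+ samples. Whether it carries a genotype difference or another difference between samples was not tested, so this fit does not decide about the lean. Over the 20 other settings 13 genes were positive in all of them and 4 negative in all, as in the main fit, and 30 took both signs. slc6a11, gabra2a and gad1 (ENSDARG00000093411) were among the 4. The median deviation of the 47 genes in a sample had a mean of 0.05 in elmo3-/- and of -0.05 in elmo3+/+ samples, with an SD of 0.11 within genotypes on the log2 scale. This SD is the spread of single samples and not the uncertainty of the shift, which was not tested.

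The highest and the lowest sample in this measure were elmo3-/- replicate 6 and elmo3+/+ replicate 2, neither of which passed Dixon's test for an outlier in its genotype (gap over range of 0.514 and 0.386, against a critical value of 0.625). In elmo3-/- replicate 6, 45 of 47 genes lay above their own mean of 12 samples, with a median deviation of 0.23, and 20 of them had their highest value there. In elmo3+/+ replicate 2, 9 of 47 lay above their mean, with a median deviation of -0.21, and 21 had their lowest value there. The remaining samples had median deviations between -0.04 and 0.09 in elmo3-/- and between -0.10 and 0.07 in elmo3+/+. Without elmo3-/- replicate 6 the median log2 fold change of the 47 genes was 0.05, and without elmo3+/+ replicate 2 it was also 0.05. The 17 pan-neuronal markers were also highest and lowest in these samples, with median deviations of 0.26 in elmo3-/- replicate 6 and of -0.27 in elmo3+/+ replicate 2. Of these markers 14 had a positive log2 fold change in edgeR (median 0.07) and 3 with 1 surrogate variable (median -0.02). In limma on log2(TPM + 1) 7 were positive, with a median of -0.03 beside -0.06 over all genes. The part of these markers in the lean of the 47 genes was not tested.

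**Figure D4:**
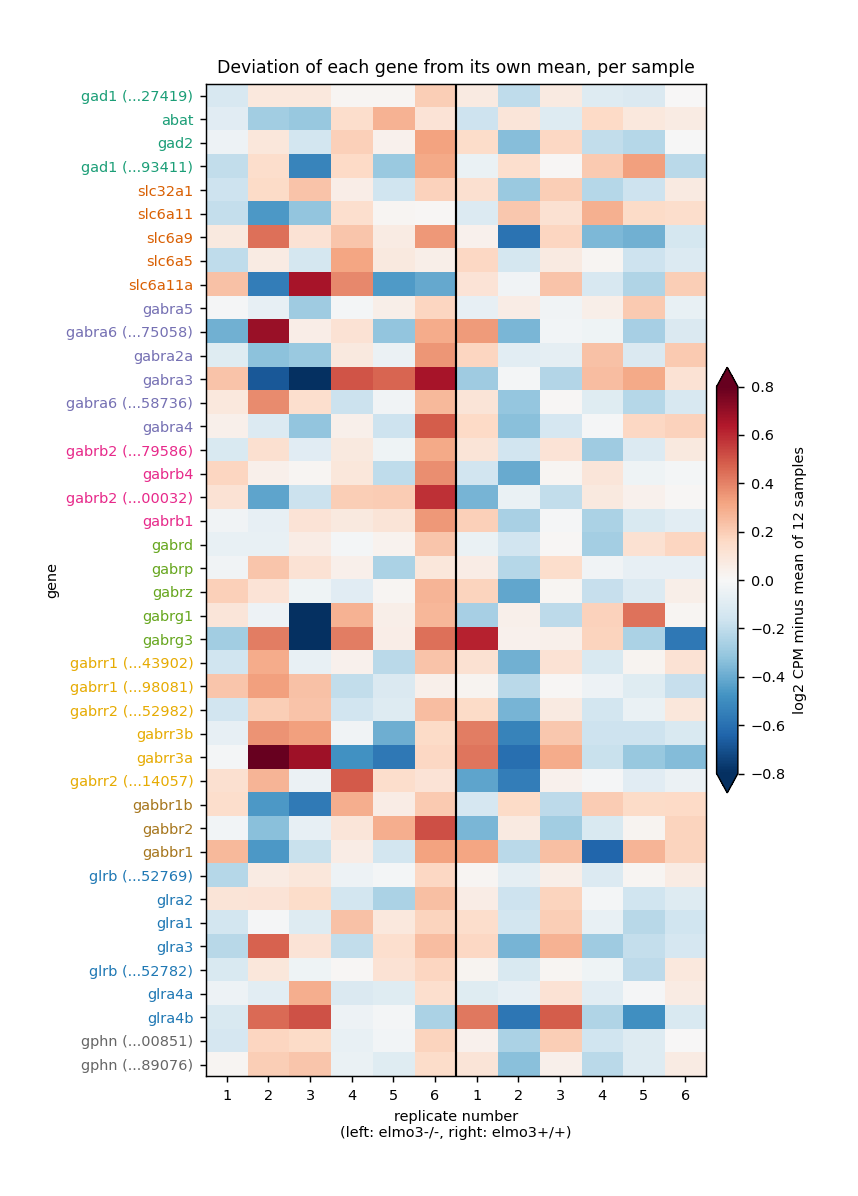
Deviation of 42 of the genes (rows, coloured by role) from its own mean over 12 samples, as log2 CPM, in each sample (columns; elmo3-/- replicates 1 to 6 left of the line, elmo3+/+ replicates 1 to 6 right of it). Red is above and blue below the mean. The column of elmo3-/- replicate 6 is almost all red (40 of 42 genes), that of elmo3+/+ replicate 2 mostly blue (8 of 42 genes above their mean).

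Other genes of the pathway were described from lists of known roles. In GABA and glycine metabolism, 19 genes of breakdown, glutamine and glycine turnover and further carriers were tested. Of these 0 were called in edgeR, DESeq2 or limma, while 5 were lower and 0 higher at an unadjusted p under 0.05, beside 4.95% and 4.58% of all genes. Their log2 fold changes were negative for 15 of 19 in edgeR, with a median of -0.15, and for 11 with 1 surrogate variable, with a median of -0.04. In limma on log2(TPM + 1) all 19 were negative, with a median of -0.27 beside -0.06 over all genes. The 2 with the smallest p were slc6a13, a GABA and taurine carrier of the liver, kidney and meninges in mammals, and aldh5a1, which oxidizes the semialdehyde that GABA transaminase leaves. slc6a13 was at 2.34, 3.09 and 4.33 CPM in elmo3-/- samples, against 4.02, 4.64 and 6.12 CPM in elmo3+/+ samples, a log2 fold change of -0.63 ± 0.16 (SE, adjusted p = 0.365). It lies on the same chromosome as elmo3 in GRCz12tu. aldh5a1 was at 12.22 to 15.3 CPM in elmo3-/- samples, against 13.6 to 18.1 CPM in elmo3+/+ samples (log2 fold change -0.22, adjusted p = 0.499).

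The partners of the receptors were described in the same way. Among 26 genes of inhibitory synapse assembly, 0 were called in edgeR, DESeq2 or limma, and 2 were higher and 0 lower at an unadjusted p under 0.05, with 18 positive log2 fold changes (11 in limma on log2(TPM + 1)) and a median of 0.09. These 2 were lhfpl4b, of a family that brings GABA-A receptors to the synapse in mammals, with 0.30 (adjusted p = 0.511), and gabarapl2, a relative of the GABA-A receptor associated protein, with 0.22 (adjusted p = 0.512). gabarapl2 also lies on the chromosome of elmo3. The 7 chloride cotransporters, which set the chloride gradient that both receptors use, and the 9 GABA-B receptor partners had 0 genes called in edgeR, DESeq2 or limma and 0 at an unadjusted p under 0.05, with medians of 0.04 and 0.04. In edgeR 5 of the 7 and 6 of the 9 were positive, against 3 and 1 in limma on log2(TPM + 1). Their limma medians were -0.009 and -0.02, and that of the 26 assembly genes was -0.02, beside -0.06 over all genes. Among 20 transcription factors of GABA neurons, 0 were called in edgeR, DESeq2 or limma and 1 was lower at an unadjusted p under 0.05, lhx6, a factor of forebrain interneurons, with a log2 fold change of -0.29 (adjusted p = 0.499). This list had 10 positive and 10 negative values in edgeR, and 4 positive and 16 negative in limma on log2(TPM + 1) (median -0.10). The 5 glutamatergic markers, set beside the inhibitory genes, had 3 positive values and 0 genes at an unadjusted p under 0.05 in edgeR. In limma on log2(TPM + 1) they had 1 positive value (median -0.05). The 2 with the smallest p in edgeR, slc17a6 and slc17a7, had log2 fold changes of -0.23 and -0.10 (adjusted p of 0.678 and 0.805). The summed level of the 5 was 41.7, 45.1 and 65.0 TPM in elmo3-/- samples, against 52.6, 55.6 and 56.7 TPM in elmo3+/+ samples.

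**Figure D5:**
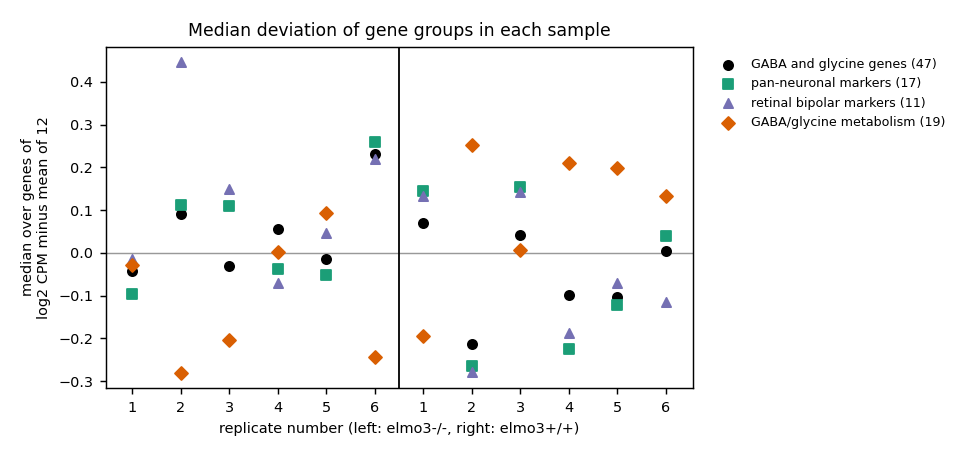
Median deviation from the mean of 12 samples (y axis, log2 CPM) of 4 groups of genes in each sample (x axis; elmo3-/- left of the line, elmo3+/+ right of it). The 47 GABA and glycine genes (black) and the 17 pan-neuronal markers (green) are highest in elmo3-/- replicate 6, with 0.23 and 0.26, and lowest in elmo3+/+ replicate 2, with -0.21 and -0.27, where the 19 metabolism genes (orange) are at -0.24 and 0.25.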

How the data were processed

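RNA of 12 samples, 6 per genotype, was sequenced on a BGISEQ-500. Per the submitters' processing notes, Trim Galore 0.6.4, kallisto 0.4.6 and the build GRCz11 were used. For each sample the authors deposited estimated counts per gene (expected counts, unscaled, 63.0% of them whole) and TPM, in which the authors had divided counts by transcript length, so that a difference in length used between samples changes TPM and not counts.

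Counts were rounded and tested with edgeR 4.0.16 (quasi-likelihood, TMM, filterByExpr, genotype as the only term) in R 4.3.3, with Benjamini-Hochberg adjustment over 21127 genes and a threshold of 0.05. Log2 CPM used a prior count of 2. As alternatives, the fit was repeated with DESeq2 1.42.0, with upper-quartile scaling, unfiltered or filtered at a mean count of 10, with a replicate block, with 1 surrogate variable (sva 3.50.0) and without each sample in turn, and TPM was tested in limma 3.58.1 with pseudocounts of 1 and 0.1. Level ratios used log2(TPM + 0.1). At this depth the lowest count of any of the 47 genes in any sample was 6, and 43 had a mean count of at least 50. The fits were tested on simulated data, in which 200 of 20980 genes were changed by 1 on the log2 scale. These 200 were drawn from genes with a mean count of at least 50. Each gene was simulated on its own, without deviations that the genes of a sample share. There edgeR recovered 97% of them, and 5.83% of its calls were false. Changes as small as those of the 47 genes were not simulated.

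Symbols came from a table that named 29201 of 32520 identifiers. Paralogs can share reads, and how kallisto split them was not examined. Genes given with sample values were the 2 highest of each role, the 10 with the smallest p, any without overlap in CPM and any on the chromosome of elmo3, with at most 2 of each other list. For 5 of the 47 genes single values are not reported here. slc6a5, slc32a1, gabrg3 and gabrr3a were given with sample values outside this rule, after their values were seen. Other genes are named with a fold change or level, or within a range. The genes and lists were chosen with earlier results of these data known. Leaving out samples other than elmo3+/+ replicate 1, and counting the 40 exact symbols alone, were added after seeing the data. No pair of samples held identical values.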

Additional observations from a re-analysis of the deposited data

How the results depend on the processing

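The number of the 47 genes past the adjusted threshold was 0 in all 21 other settings and gene choices run. The number at an unadjusted p under 0.05 was 4 in the main fit and 2 with DESeq2, with the replicate block, with limma on either TPM scale and with 1 surrogate variable, and 2 to 5 when samples were left out one at a time (2 without elmo3-/- replicate 2 and 2 without elmo3+/+ replicate 2). Over all genes 49 passed with DESeq2, against 21 in edgeR. Of the 38 level pairs 0 were told apart with elmo3-/- samples alone and 25 with elmo3+/+ samples alone, where 6 samples allow no exact p below 0.0312 and the smallest adjusted p was 0.054 and 0.0475. All pairs at that lowest p pass or fail together, so 0 against 25 does not measure a difference in level order. The order of all 12 samples was kept in 36 of 38 pairs in either genotype alone. No source says whether the replicate numbers in the titles pair the samples, and pairing was left undecided. Correlations of same-numbered samples ran from -0.289 to 0.392, and 5 of 12 samples correlated best with their own number. With the block 17 genes of all passed, and the median of the 47 genes was 0.09. Log2 fold changes near 0 turned sign. In limma the median over all genes was -0.06 on log2(TPM + 1) and -0.08 on log2(TPM + 0.1). Of the limma values that follow, those of gabrd, gabrr1 (ENSDARG00000043902), gphn (ENSDARG00000089076) and glrb (ENSDARG00000052769) lay above these medians. On log2(TPM + 1) and log2(TPM + 0.1), limma gave -0.13 and -0.13 for gabrb2 (ENSDARG00000079586), -0.016 and -0.017 for gabrd, -0.0036 and -0.0045 for gabrr1 (ENSDARG00000043902), -0.014 and -0.015 for gphn (ENSDARG00000089076), -0.046 and -0.047 for glrb (ENSDARG00000052769), -0.11 and -0.12 for glra2, and -0.089 and -0.090 for gad1 (ENSDARG00000027419). With 1 surrogate variable the value was 0.0023 for gabra5, -0.016 for gabrb2 (ENSDARG00000079586), -0.095 for gabrr1 (ENSDARG00000043902), 0.095 for gabbr1b, -0.030 for gphn (ENSDARG00000100851), -0.037 for glrb (ENSDARG00000052769), -0.051 for glra2 and 0.096 for abat. When samples were left out one at a time, gabrr1 (ENSDARG00000043902) ranged from -0.019 (without elmo3+/+ replicate 2) to 0.092, negative also without elmo3-/- replicate 2, and gabbr1b from -0.15 to 0.0092 (without elmo3-/- replicate 3). glrb (ENSDARG00000052769) ranged from -0.016 (without elmo3-/- replicate 6) to 0.060, negative also without elmo3+/+ replicate 4, and abat from -0.10 to 0.016, positive without elmo3-/- replicate 2 or 3. The causes of these turns were not tested. The 40 genes of exact symbol had a median of 0.09. For 6 of the 47 genes the interval exceeds 1.5-fold: gabrg3, gabrr3a, gabra3, gabrr2 (ENSDARG00000014057), glra4b and slc6a9. That of slc6a9 reached 1.58-fold around an estimate of 1.33-fold, with a standard error of 0.12 and at least 1781 counts in each sample. Whether depth or the spread between samples sets the width of the other intervals was not tested.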
